A study of Mus musculus with 60 samples.

Results

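Cytosolic ribosomal protein genes encode the proteins that, with ribosomal RNA, form the ribosomes of the cytoplasm, and most have many processed pseudogene copies in the mouse genome. Members were the symbols Rpl or Rps followed by a number and an optional letter or l, with Rplp0, Rplp1, Rplp2 and Rpsa, and a mean of at least 5 TPM. TPM, a level corrected for the length of the gene, adds up to the same total in every library. In all 83 symbols fitted the name pattern; Rps26 was left out by the rule and 5 fell below the minimum (Rps4l, Rpl10l, Rpl6l, Rpl39l and Rpl3l). This left 77 genes of the 47643 in the table, 47 of the large (60S) and 30 of the small (40S) subunit. All 77 passed the filter on low values, which asked for 1 TPM or more in 4 or more libraries. Rps3a1, Fau and Gnb2l1, among others, also encode ribosomal proteins and lie outside the rule.

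The samples were 60 RNA-seq libraries of hippocampus from female mice of 2 months. Mice received melanoma cells labelled cachectic (CAC), melanoma cells labelled non-cachectic (NCAC) or a mock injection (Con), and tissue was collected at 2, 4, 6 or 8 wk. In the order of these times, CAC had 4, 5, 5 and 7 libraries and NCAC 5, 5, 4 and 5, while Con had 5 at every time. The sample labels give the strain as C57BL6/J and the design text as NCI Ath/nude, and the extract protocol names LLC cells, a tumour line that is in no group. Replicates are labelled as biological, with no statement that each is its own animal, and p-values therefore reflect only how far these libraries scatter.

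Depth was 32388197 to 42047145 reads per library, recovered from the TPM values. Hippocampal neuron markers averaged 7.1 to 7.75 log2 in every library, with 0 of 10 markers at 0 anywhere. Of the 60 libraries, 5 were rich in striatum genes (CAC at 2 wk replicate 1, CAC at 4 wk replicates 1 and 4, NCAC at 4 wk replicate 5 and Con at 4 wk replicate 2) and 1 in blood genes (CAC at 8 wk replicate 3). Results are also given without these 6. The Con libraries at 8 wk had low length slopes. The length slope, which is the change in log2 level of all tested genes per doubling of gene length, was -0.1173 to -0.1021 in them. It was -0.1044 to 0.1699 in the other groups. Negative values mean that short genes are high relative to long ones, and 2 libraries outside this group reached its range (Con at 2 wk replicate 4 and NCAC at 4 wk replicate 3).

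Ribosomal protein mRNAs are among the most abundant in any cell. Many begin with a terminal oligopyrimidine (TOP) tract, a cytosine followed by a run of pyrimidines, through which mTORC1 and Larp1 control their translation; Larp1 also affects their stability. In neurons they are found in the soma and also in axons and dendrites. In bulk tissue, fewer cells of a type and less RNA per cell cannot be told apart.

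The start regions below are those of the 3 steadiest members (Rpl15, Rpl5 and Rps6), of the most variable members with an entry (Rps12 and Rps28), and of 3 that differed between groups (Rpl14, Rps18 and Rpl10). Of the 77 members, 57 had an entry in the RefSeq promoter table (GRCm38.p6), with 68 start sites. Windows run from 30 bases before the start to 20 after it, 5′ to 3′ on the gene's strand. Capitals mark the longest C or T tract that lies at or within a few bases of the start.
Rpl15 (chr14:18270967-18271016, minus strand): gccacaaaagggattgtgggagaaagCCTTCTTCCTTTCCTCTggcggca
Rpl5 (chr5:107900498-107900547, plus strand): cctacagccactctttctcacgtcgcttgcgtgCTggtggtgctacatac
Rps6 (chr4:86857348-86857397, minus strand): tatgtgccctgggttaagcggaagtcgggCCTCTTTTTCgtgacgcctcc
Rps12 (chr10:23787190-23787239, minus strand): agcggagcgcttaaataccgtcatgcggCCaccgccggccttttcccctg
Rps28 (chr17:33824543-33824592, minus strand): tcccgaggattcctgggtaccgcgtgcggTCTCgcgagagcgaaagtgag
Rpl14 (chr9:120571487-120571536, plus strand): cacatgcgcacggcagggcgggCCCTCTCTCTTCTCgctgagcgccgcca
Rps18 (chr17:33955646-33955695, minus strand): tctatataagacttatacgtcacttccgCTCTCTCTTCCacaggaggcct
Rpl10 (chrX:74270786-74270835, plus strand): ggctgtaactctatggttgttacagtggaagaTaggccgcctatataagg

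Long and short tracts were found among both the steadiest members and those that differed. Of the steadiest members, Rpl15 and Rps6 start with C in tracts of 17 and 10 bases, and Rpl5 starts with G and has a tract of 2 nearby. Of the variable ones, Rps12 starts with A beside a tract of 2, and Rps28 starts with C in a tract of 4. Rpl14 and Rps18 hold tracts of 14 and 11 bases at a start with C, and Rpl10 starts with G, with a single T just after it. Over the 68 starts, 29.4% held a C or T tract of at least 8 bases at or within a few bases of the start. The share was 7.24% of all 32851 mouse starts in the table. Not every such tract includes the start base: that of Rpl13a, with 14 bases, begins at base 3. The start base was C in 29.4% of them and in 16.3% of all starts. The letters CTTCCG on either strand, the core bound by ETS-family factors, lay within the 300-base promoter window of 63.2% of member starts and 16.9% of all starts. AAGATGGC, part of the YY1 motif, was in 10.3% against 2.75%, and TATAAA in 8.82% against 13.6%. These matches describe the letters in these windows and no binding was measured.

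Members took 1.59% to 2.79% of each library's TPM (median 2.265%). Rplp1, a P-stalk protein that helps to recruit elongation factors, was highest at 1260 ± 405 TPM (mean ± SD, n = 60). Next were Rpl4, which lines the peptide exit tunnel, at 1090 ± 64.1, Rps15 at 910 ± 175, Rpl19 at 719 ± 60.3 and Rpl13a at 713 ± 68.4 TPM. The lowest were Rps27l, a p53-induced paralog of Rps27, at 21.7 ± 6.14 TPM, Rpl29 at 21.7 ± 10.3, Rpl27 at 37.8 ± 5.54, Rpl35a at 42.7 ± 7.19 and Rps20 at 45.0 ± 9.33. Rpl29 and Rps27l, and Rpl19 and Rpl13a, lie closer to each other than their SDs. Rpl27 shares reads with a copy in the table, Rpl27-ps3, which took 75.6% of them. Its low rank thus depends on how those reads were assigned. The order depends on the length used, because the table divides by the union of all exons of a gene. Per kilobase of the principal mRNA, Rplp1 stayed first with 357 reads per kilobase and 1000000 reads, Rpl9 moved from rank 33 to rank 2 with 338, and Rpl29 was last with 8.52.

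Across the 60 libraries the members with short coding sequences varied most. The SD of log2(TPM + 0.5) had a median of 0.476 in the 26 members with coding lengths of 75 to 399 nucleotides, 0.255 in the 25 members of 405 to 552 and 0.111 in the 26 members of 564 to 1257. Rpl15 (SD 0.069), Rpl5 (0.074), which binds 5S RNA, and Rps6 (0.074), the substrate of S6 kinase, were steadiest. Rpl15 lay between 219 and 279 TPM, with a median of 244. Rps12 (3.069), Rps29 (1.017) and Rps28 (0.889) spread most, and Rps29 ranged from 19.5 to 726 TPM with a median of 286. Rpl22 (SD 0.098) and Rps15a (0.209) were exceptions among the short members, both below the median of the middle ones. The lowest Rps29 value was in NCAC at 2 wk replicate 2, and the 5 Con libraries at 8 wk, at 637 to 726, were among the 7 highest, with NCAC at 8 wk replicate 5 (671) and Con at 2 wk replicate 4 (681).

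**Figure D1:**
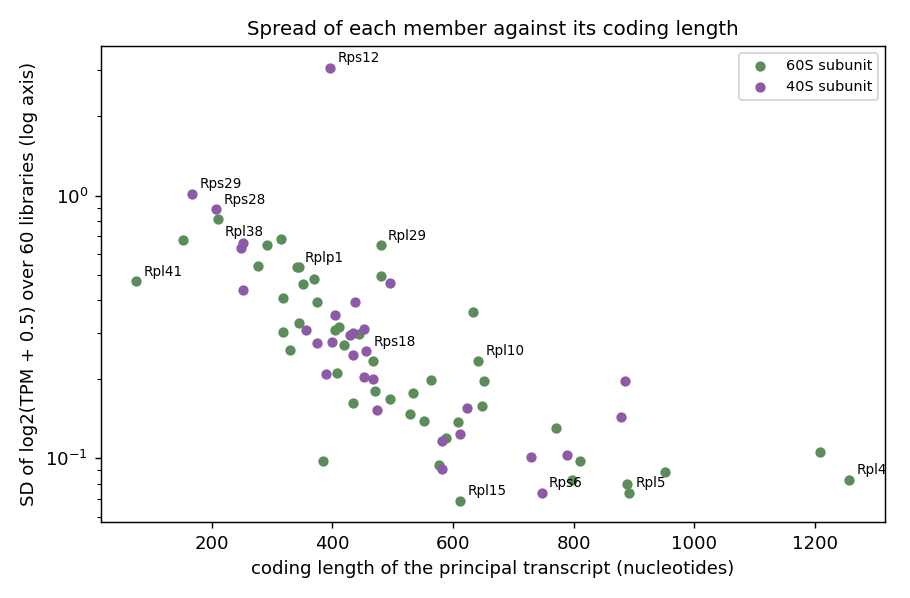
Each point is 1 of the 77 members, with coding length in nucleotides on the x axis and the SD of log2(TPM + 0.5) over 60 libraries on a log y axis; colours give the subunit. The SD falls from a median of 0.476 in the shortest members to 0.111 in the longest, with Rps12 at 3.069 above all others.

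Most of the shortest members moved together in these libraries, and most of the longest did so less closely. In 44 of 77 members the log2 level had a Pearson r above 0.8 with the mean of the other members over the 60 libraries, 22 of the 26 shortest and 4 of the 26 longest. It was lowest in Rps18 (-0.52), Rpl10 (-0.24), Rpl7 (-0.18), Rps4x (-0.14), Rpl4 (-0.05) and Rpl27 (-0.03). The libraries share the same total scaling, and r is a description only. Outside the list, the 3 genes most like the member mean were Ndufa2 (r = 0.974), Usmg5 (0.968) and Uqcr10 (0.966), which encode small mitochondrial proteins of respiratory complex I, ATP synthase and complex III. Their gene lengths in the table were 572, 341 and 584 bases. The 60S and 40S members did not separate: the 60S mean minus the 40S mean, without Rps12, was between 0 and 0.05 log2 in the 12 group means, with SDs of 0.01 to 0.05.

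At 2 wk ribosomal protein mRNAs were lower in CAC than in Con. Past the threshold, 26 of 77 members fell and 0 rose. Of all 15608 genes tested 1.98% fell and 1.72% rose, 3.7% in all (limma, Benjamini-Hochberg adjusted p under 0.05). The median difference was -0.35 log2 over the members and 0.06 over all genes. The fall was graded by length: 16 of 26 short members passed with a class median of -0.83, 9 of 25 middle ones with -0.43, and 1 of 26 long ones with -0.09. Of the 60S members 18 of 47 fell, and of the 40S members 8 of 30, with medians of -0.34 and -0.41.

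Rpl36, of the large subunit, was 43.3, 68.8, 115 and 193 TPM in the 4 CAC libraries and 185, 191, 231, 257 and 401 in Con. Only the highest CAC library reached the Con range. The difference was -1.42 ± 0.316 log2 (SE, limma adjusted p = 0.0188). Rplp1 was 398, 475, 665 and 1090 TPM in CAC and 992, 1060, 1180, 1340 and 2040 in Con, a fall of 1.07 ± 0.24 (adjusted p = 0.019). Here too 1 CAC library lay inside the Con range. Rps24, a Diamond-Blackfan anaemia gene, was 317, 400, 461 and 474 TPM against 522, 569, 585, 636 and 666, with no overlap (-0.54 ± 0.14, limma adjusted p = 0.0288). Other members that fell were Rpl12 at the base of the P stalk (-0.33), Rps13 (-0.57), Rpl23 (-0.52), Rps10 (-0.88), Rpl27a (-0.53) and Rps25 (-0.51), with adjusted p of 0.0248 to 0.0304 in limma.

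The count at 2 wk was 0 without the striatum-rich CAC replicate 1, without CAC replicate 2, without Con replicate 4 or 5, without the 6 rich libraries, or with only the compared groups in the fit, and 43 without CAC replicate 5. The length slope was 0.0301 to 0.1641 in the CAC libraries and -0.1044 to 0.0364 in Con. With the trend on GC content and length removed from each library, 13 members fell, and Rps24 and Rps25 were not among them. Over all settings the smallest differences were -0.24 log2 for Rps24, -0.121 for Rps25, -0.61 for Rpl36 and -0.473 for Rplp1. Thalamus markers were higher in 3 of 8 tested (Prkcd by 1.13), with a mean of 3.19 to 4.63 log2 in CAC and 2.83 to 3.22 in Con, and Gbx2 was the only marker at 0 in some library. Of 10 hippocampal markers 2 were lower, Spink8 by 1.12 and Nrgn by 1.08. Their part in the member differences was not tested.

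At 4 wk the direction was the opposite. Past the threshold, 10 of 77 members rose in CAC over Con and 0 fell. Of all genes 0.487% rose and 0.314% fell, 0.801% in all. The difference was above 0 in 76 of 77 members. The median difference was 0.39 log2, against 0.00 for all genes to 2 decimals (-0.005). The class medians were 0.58, 0.42 and 0.16 log2 from short to long, with 3, 5 and 2 members past the threshold.

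Rpl14 was 421, 483, 527, 544 and 612 TPM in CAC and 327, 346, 374, 390 and 417 in Con, with no overlap (0.47 ± 0.09 log2, limma adjusted p = 0.0109). Its named copy Rpl14-ps1 took 0% to 25.3% of their shared reads over the libraries. The copy was at 146 TPM in Con replicate 2, 90.1 in CAC replicate 1, and 0.575 or less in the other libraries of these groups. The sum of Rpl14 and its copy was not tested at 4 wk. Rpl5, which with Rpl11 and 5S RNA can bind Mdm2, was 206, 209, 210, 213 and 216 TPM in CAC and 179, 181, 187, 189 and 190 in Con. This was a small and even difference of 0.19 ± 0.04 (limma adjusted p = 0.0243). Rps14, of the 40S platform, was 370, 377, 380, 388 and 416 TPM against 252, 279, 299, 300 and 306 (0.43 ± 0.09, limma adjusted p = 0.0247). Rps24 was 476, 546, 560, 576 and 582 TPM against 308, 354, 365, 405 and 413 (0.57 ± 0.13, limma adjusted p = 0.0335). In each of these 4 genes the groups did not overlap. They were named by small p on the same values, so the lack of overlap is no separate evidence. The share of all genes without overlap was not computed. The others were Rpl24 (0.42), which bridges the subunits, Rps27a (0.42), made as a fusion with ubiquitin, Rpl35a (0.51), Rpl11 (0.35), Rpl26 (0.34) and Rps25 (0.47).

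The count at 4 wk was 0 without CAC replicate 2 or 4, without Con replicate 4 and without the 6 rich libraries, 1 without Con replicate 1, 2 without Con replicate 5, and 21 without CAC replicate 5. With the trend on GC content and length removed 16 members rose, and with only the compared groups 3. The length slope was -0.0155 to 0.0438 in CAC and 0.0244 to 0.1016 in Con. Choroid plexus markers averaged 1.97 to 4.4 log2 in CAC and 4.6 to 5.34 in Con, with a median difference of -2.27 and 0 of 10 past the threshold; their part in the member differences was not tested.

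Member levels in the Con group itself also differed between these times. In a comparison added after the values were seen, 17 of 77 members were lower in Con at 4 wk than in Con at 2 wk, against 0.416% of all genes, and 0 were higher, against 0.032%. From 4 to 8 wk in Con 56 members rose, against 9.39%, and 3 fell, against 27.3%. The length slope in Con was -0.1044 to 0.0364 at 2 wk, 0.0244 to 0.1016 at 4 wk and -0.1173 to -0.1021 at 8 wk. Its part in these Con differences was not tested, and both Con comparisons were made with the main fit only. The change of the CAC minus Con difference from 2 to 4 wk, also added, was above 0 in 76 of 77 members, with 52 past the threshold, against 3.79% of all genes. Rpl14 changed by 0.82 ± 0.13 log2 (limma adjusted p = 0.000575) and Rps24 by 1.11 ± 0.19 (limma adjusted p = 0.00162). Rpl14-ps1 also held 84.8 and 73.7 TPM in CAC replicates 1 and 2 at 2 wk, and its part in the Rpl14 change was not tested. Without the 6 rich libraries 29 members passed, and without each library in turn 36 to 59.

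**Figure D2:**
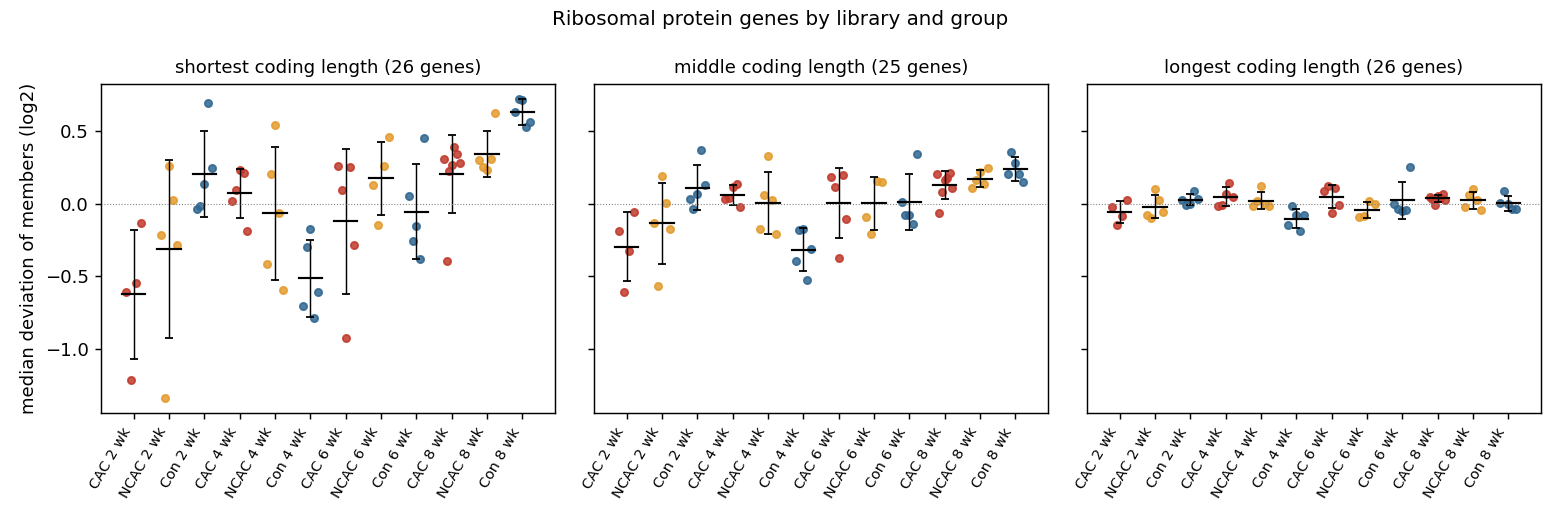
Points are libraries (red CAC, orange NCAC, blue Con), grouped by injection and week; the y axis is the median over members of the log2 deviation from each member's mean over 60 libraries, and bars are the group mean with SD. Group means of the short members run from -0.62 in CAC at 2 wk to 0.63 in Con at 8 wk, and those of the long members from -0.1 to 0.05. Single libraries spread further, from -0.19 to 0.251 for the long members.

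At 6 wk 0 of 77 members passed between CAC and Con in limma, against 0.25% of all genes (0.179% higher, 0.0705% lower), with 3 members at an unadjusted p under 0.05, against 12.1% of all genes. The median difference was 0.00 log2. The smallest p belonged to Rps2, whose CAC mean was 204 ± 12.5 TPM and whose Con mean was 255 ± 41 (SD, 5 libraries each), to Rpl10 at 105 ± 9.32 and 86.4 ± 7.02, and to Rpl7 at 319 ± 18.8 and 296 ± 19.1 TPM. Their limma adjusted p were 0.0759, 0.186 and 0.392.

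At 8 wk 7 of 77 members rose in CAC over Con and 2 fell, against 11.3% and 3.2% of all genes. The share of members past the threshold was thus below the background among all genes, 14.5%. The median difference was -0.10 log2, with -0.44 in the short class, -0.11 in the middle and 0.01 in the long. Other scalings changed the split: 2 rose and 2 fell with median-of-ratios scaling, 15 and 2 with the trend on GC content and length removed, and 6 and 26 with only the compared groups.

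Rpl10, a late-joining 60S protein near the peptidyl transferase centre (chrX:74270812-74273135, plus strand, GRCm38), was 74.5, 88.3 and 97.2 TPM at the lowest, median and highest of the 7 CAC libraries. In Con it was 44.8, 58.9, 60, 62.8 and 74.7 TPM, so only the highest Con library reached the lowest CAC one. The difference was 0.55 ± 0.09 log2 (SE, limma adjusted p = 0.000305), and it stayed past the threshold under every other setting listed with the processing. Reads that Rpl10 shares with a named copy are taken up separately, with a different outcome. In the other 11 groups the Rpl10 means were 78.4 to 105 TPM, all above Con at 8 wk. NCAC at 8 wk had 67.8, 69.1, 75.7, 81.2 and 98.1 TPM.

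Rps18, of the 40S head (chr17:33951999-33956001, minus strand), was 45.9, 49.3 and 68.5 TPM at the lowest, median and highest CAC library. In Con it was 35.7, 36.5, 38.9, 39.2 and 39.7 TPM, with no overlap (0.49 ± 0.10 log2, limma adjusted p = 0.00142). Its means in the other 11 groups were 49.3 to 65.7 TPM and again Con at 8 wk was lowest. Rpl7a was 365, 383 and 397 TPM at the lowest, median and highest CAC library and 328, 336, 339, 347 and 351 in Con (0.17 ± 0.04, limma adjusted p = 0.00882). The other members that rose were Rps14 (0.31), Rpl7 (0.16), Rpl27 (0.33) and the X-linked Rps4x (0.14). Rpl7a, Rps14, Rpl7, Rpl27 and Rps4x did not pass with median-of-ratios scaling.

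Rpl29 (chr9:106429454-106431568, plus strand) was 12.4, 24.2 and 26.5 TPM at the lowest, median and highest CAC library and 40.7, 41.8, 44, 47.5 and 48.3 in Con (-0.97 ± 0.28 log2, limma adjusted p = 0.0186). Rps28, near the mRNA exit of the 40S subunit (chr17:33819027-33824562, minus strand), was 14, 53 and 59 TPM in CAC by the same measures and 97.3, 97.6, 99.8, 104 and 107 in Con (-1.18 ± 0.39, limma adjusted p = 0.0366). Neither gene's groups overlapped, though both genes were named for passing on the same values. The Rps28 call was lost with no filter on low values (limma adjusted p = 0.0536) and in 6 of 12 fits without 1 library, those without CAC replicate 2 or any Con replicate (up to 0.124). The Rpl29 call was lost without CAC replicate 2 (limma adjusted p = 0.0611). In both, Con at 8 wk was the highest of the 12 groups, with means of 12.7 to 27.1 TPM for Rpl29 and 22.5 to 60.9 for Rps28 elsewhere. NCAC replicate 5 at 8 wk, with 45.9 TPM of Rpl29 and 102 of Rps28, lay in the Con range, and the other 4 NCAC libraries in or near the CAC range. Without CAC replicate 2, the lowest for both genes, 4 members rose and 0 fell; without Con replicate 4, 4 rose and 1 fell. The length slope was -0.0558 to 0.0312 in CAC, against the lower values in Con given above. Of 10 hippocampal markers Spink8 was higher by 0.43 log2 and Nrgn lower by 0.63.

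**Figure D3:**
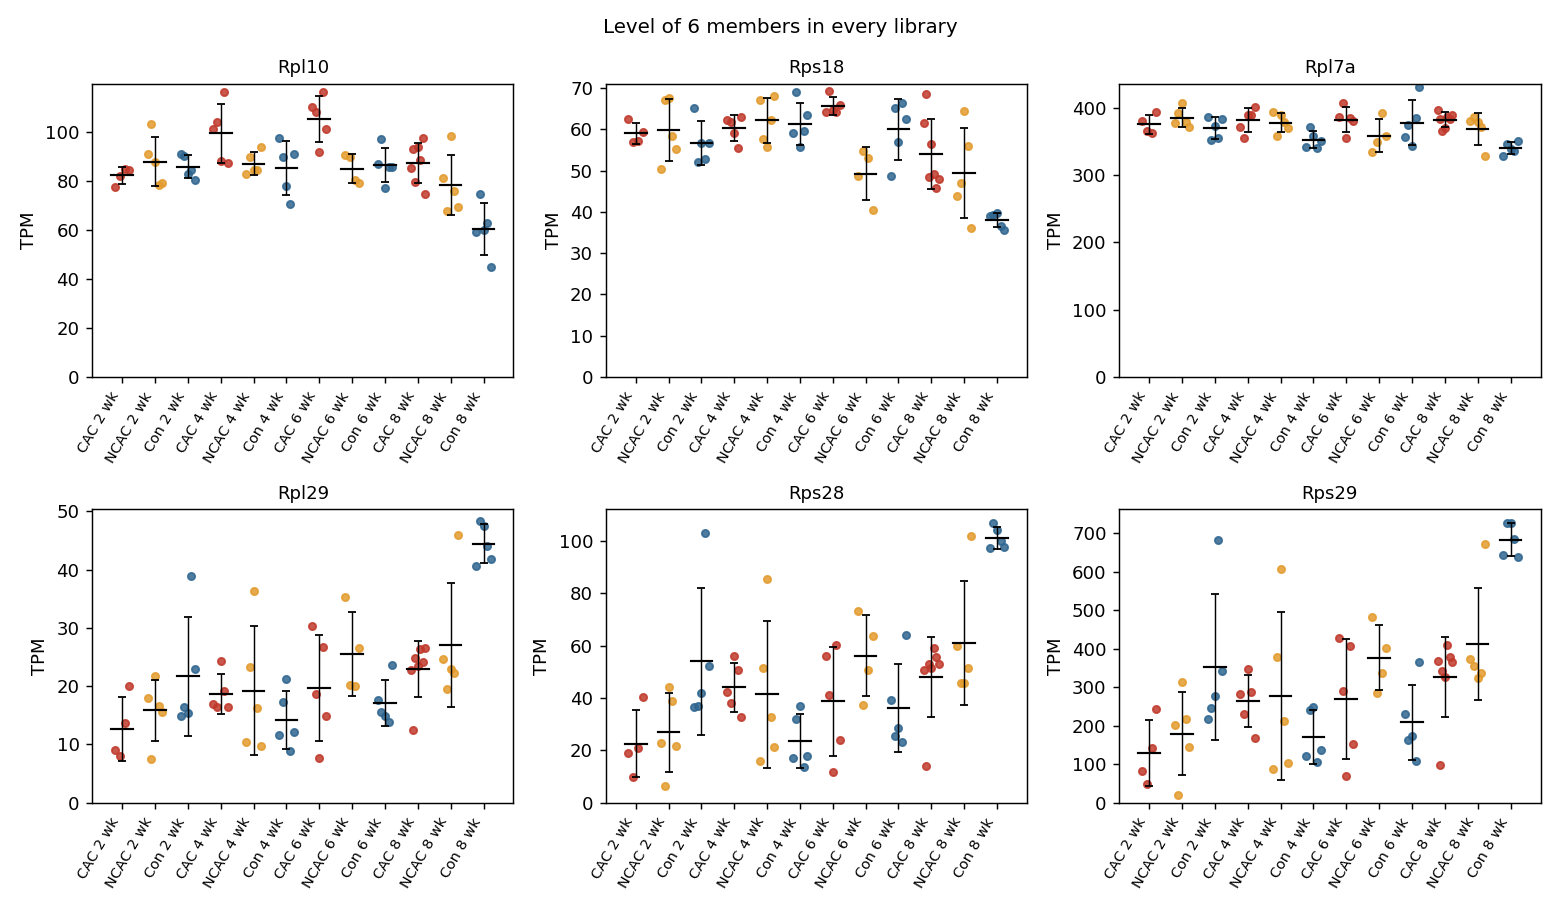
TPM of Rpl10, Rps18, Rpl7a, Rpl29, Rps28 and Rps29 in each of the 60 libraries (points; red CAC, orange NCAC, blue Con), with the group mean and SD. Con at 8 wk is the lowest group for the first 3 genes and the highest for the last 3.

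**Figure D4:**
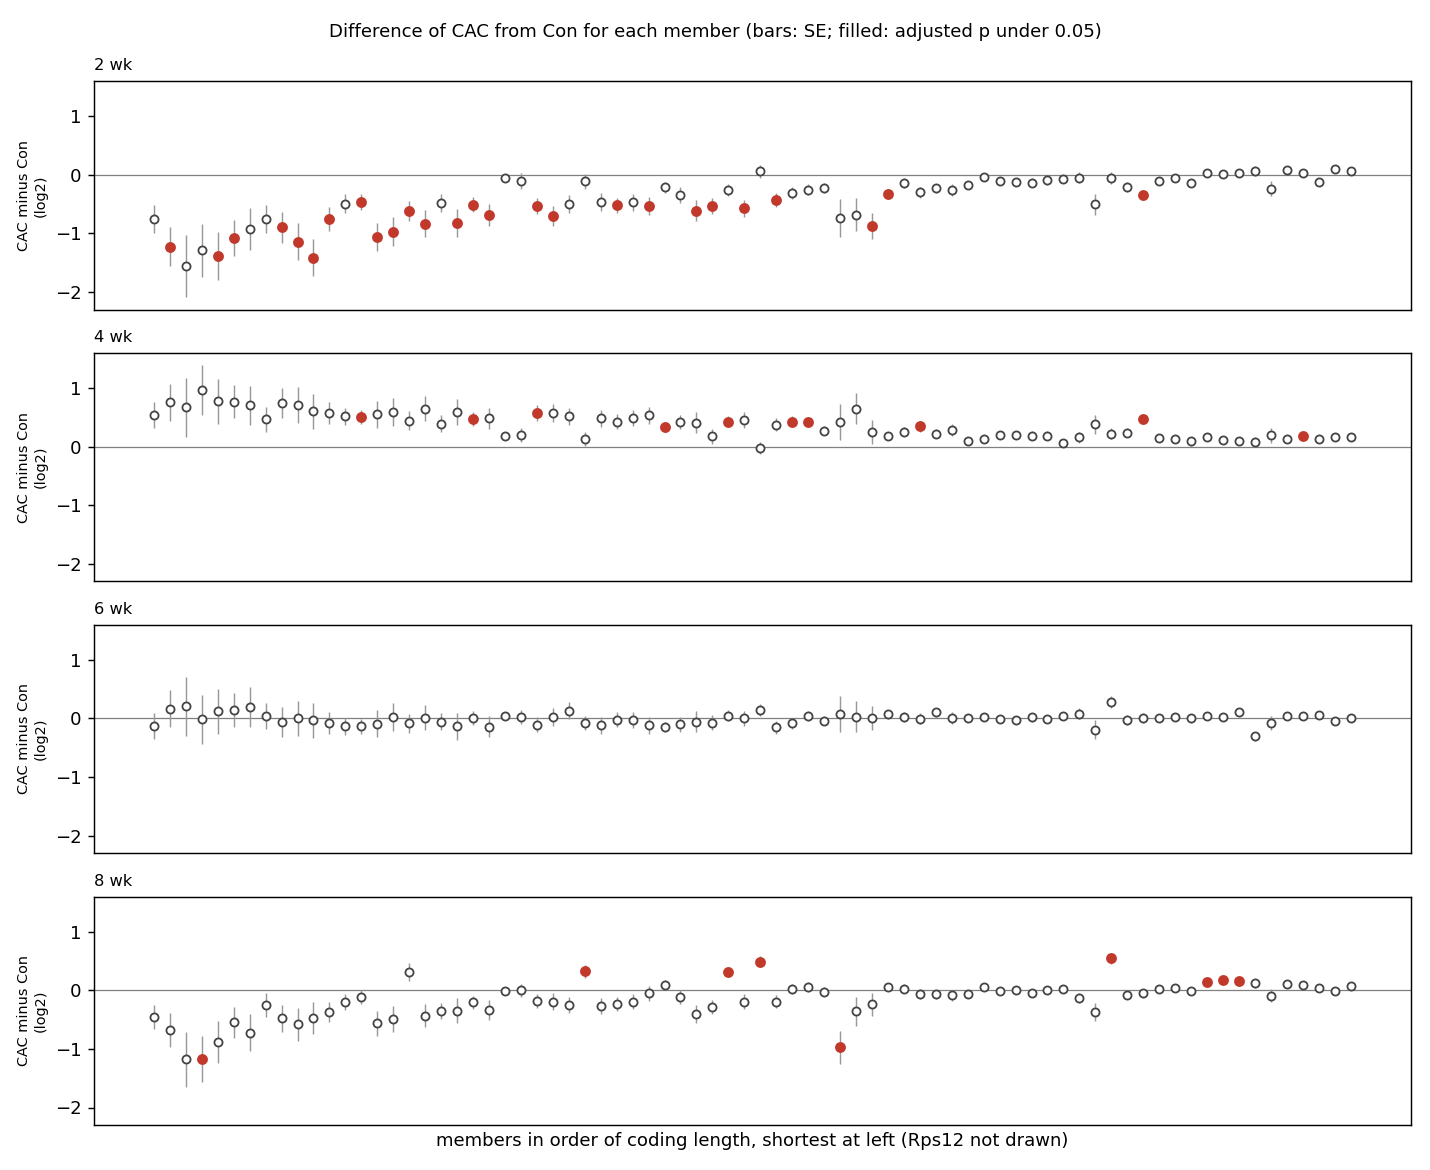
CAC minus Con in log2 (y axis, bars are SE) for 76 members ordered from the shortest to the longest coding length, with 1 panel per week; filled red points passed the threshold. The median of the short members is -0.83 at 2 wk, 0.58 at 4 wk and -0.44 at 8 wk, and that of the long members -0.09, 0.16 and 0.01; Rps12 is not drawn.

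Several members share reads with named copies in the table, and their values are uncertain. Rpl10-ps3 took 79.9% of the reads given to Rpl10 and itself, and the sum was steadier than Rpl10 alone, with an SD of 0.08 log2 over 60 libraries against 0.21. At 8 wk the sum in CAC was 7.93 ± 0.06 on the log2 scale of reads per 1000000 (SD, n = 7), and in Con 7.89 ± 0.05 (n = 5), a difference of 0.03 log2 (two-sided exact permutation p = 0.34 over libraries, 0.34 adjusted over 7 genes with copies). For the sum the groups thus differed by less than the spread between libraries. For Rpl27 and Rpl27-ps3 the sum was lower in CAC by 0.17 log2 (exact permutation p = 0.053, adjusted 0.0928), the opposite direction to Rpl27 alone. For Rps18 and Rps18-ps3 the sum was higher in CAC by 0.33 (exact permutation p = 0.00379, adjusted 0.00884).

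Rps12 was listed at 0 in 5 libraries and at up to 449 TPM in others, while Rps12-ps3 took 51.6% to 100% of the shared reads. Their sum had an SD of 0.31 log2 against 2.28 for Rps12 alone. On the same scale it was 6.75 ± 0.18 in CAC at 8 wk and 7.01 ± 0.06 in Con (-0.27, exact permutation p = 0.00379, adjusted 0.00884). Rps26, outside the rule, and Rps26-ps1 exchanged reads in the same way, with a copy share from 0% to 100%. These tests, added after the values were seen, use only the copies that carry the gene's name.

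**Figure D5:**
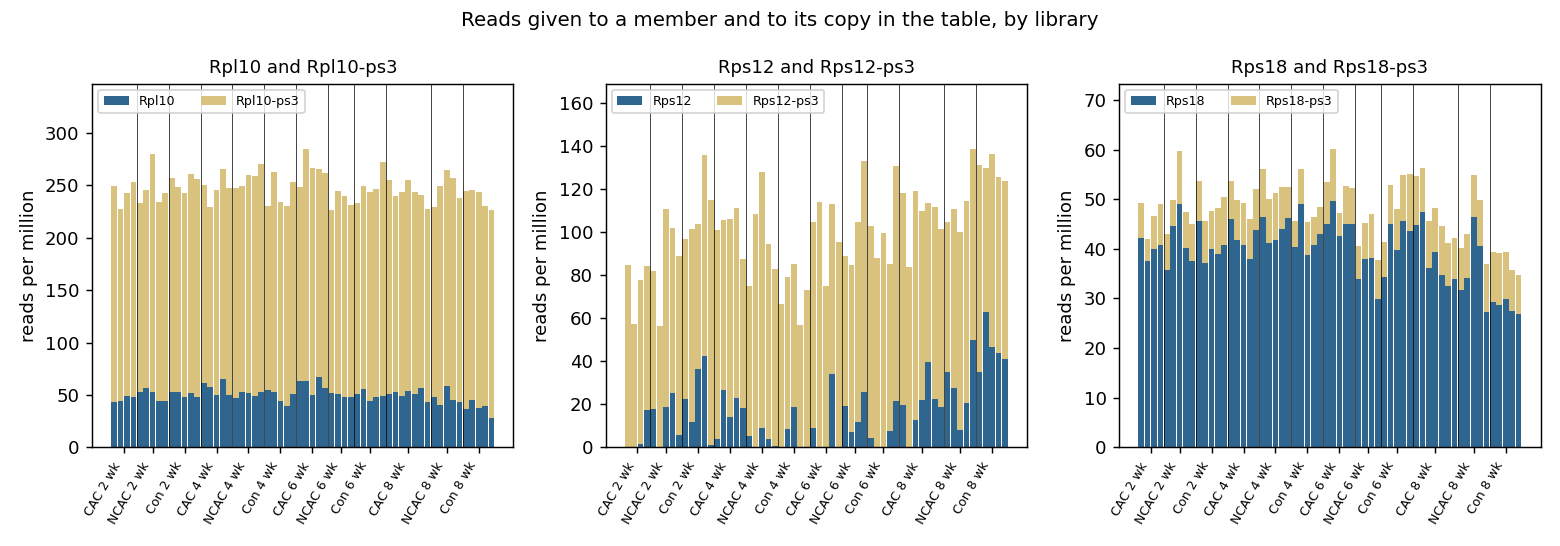
Stacked bars give reads per 1000000 reads for Rpl10, Rps12 and Rps18 (blue) and the copy named after each (sand) in the 60 libraries, ordered by group along the x axis. The Rpl10 sum is even across groups, Rps12 changes its share from library to library, and Rps18 is low in Con at 8 wk.

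Against mice with non-cachectic melanoma, 3 of 77 members rose in CAC at 6 wk, and 0 fell. Of all genes 1.33% rose and 0.442% fell, 1.77% in all. Rps4x was 470, 500, 511, 512 and 550 TPM in CAC and 402, 420, 451 and 460 in NCAC (0.23 ± 0.06 log2, limma adjusted p = 0.0245). Rpl7 was 297, 311, 317, 319 and 348 TPM against 257, 271, 277 and 294 (0.21 ± 0.05, limma adjusted p = 0.0315). Rps18 was 64.2, 64.3, 64.7, 65.8 and 69.4 TPM against 40.5, 48.7, 53.1 and 54.8 (0.42 ± 0.11, limma adjusted p = 0.0345). None of the 3 genes overlapped between the groups, but they were named for passing on the same values. The share of all genes without overlap was not computed. The count was 0 with only the compared groups in the fit, without CAC replicate 2 and without NCAC replicate 1 or 4, and 1 without CAC replicate 1 or 5.

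At 2, 4 and 8 wk 0 members passed between CAC and NCAC, against 0%, 0.0128% and 1.83% of all genes (at 8 wk 1.26% higher and 0.564% lower). At an unadjusted p under 0.05 there were 2, 2 and 0 in limma, against 6.9%, 14% and 15.5% of all genes. At 2 wk the smallest p was that of Rpl21, whose CAC mean was 75.7 ± 13.2 TPM and whose NCAC mean was 134 ± 71.3 (SD, 4 and 5 libraries), a difference of -0.66 ± 0.28 log2 (limma adjusted p = 0.68). At 4 wk it was Rpl5 (0.10, adjusted p = 0.251 in limma) and at 8 wk Rpl10 (0.16, adjusted p = 0.378 in limma). The median differences were -0.14, 0.07 and -0.06 log2.

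Between NCAC and Con 0 members passed at any of the 4 times, against 0% of all genes in each (limma). At an unadjusted p under 0.05, 35 members were lower at 2 wk and 45 higher at 4 wk, with 6 at 6 wk and 9 at 8 wk. Of all genes 9.7%, 9.9%, 3.8% and 7.9% passed that threshold at these times, in either direction. The medians were -0.22, 0.31, -0.01 and -0.05 log2, beside -0.35, 0.39, 0.00 and -0.10 for CAC minus Con. These comparisons share the Con libraries. Among the smallest p in limma were those of Rps13 at 2 wk (adjusted p = 0.43), Rps4x at 6 wk (0.973) and Rpl10 at 8 wk (0.634).

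From 2 to 8 wk members rose in both tumour groups. In CAC 51 of 77 rose and 0 fell, against 10.8% and 20.1% of all genes (31% in all). In NCAC 24 rose and 1 fell, against 4.68% and 9.35% (14% in all). In Con 3 rose and 3 fell, against 1.67% and 8% (9.67% in all). The median difference was 0.40 log2 in CAC, 0.28 in NCAC and 0.12 in Con. In Con the difference was above 0 in 55 of 77 members, and in 25 of 26 short ones, with a short median of 0.38. In CAC 23 of 26 short members, 22 of 25 middle and 6 of 26 long ones rose, with medians of 0.78, 0.43 and 0.07 log2. Rpl12 rose from 103 ± 16.1 TPM (SD, n = 4) to 137 ± 4.11 (n = 7), by 0.43 ± 0.07 log2 (limma adjusted p = 4.26e-05). Rpl36 rose from 105 ± 65.7 to 282 ± 60.6 TPM and Rplp1 from 656 ± 308 to 1360 ± 166.

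In NCAC the same comparison gave Rpl27a from 126 ± 24.8 (n = 5) to 187 ± 8.07 TPM (n = 5), a rise of 0.60 ± 0.13 log2 (limma adjusted p = 0.0078), and Rps18 was the member that fell (-0.29 log2, limma adjusted p = 0.0493). In Con, Rpl29, Rpl27a and Rpl13 rose and Rps18, Rpl10 and Rpl7 fell. Rps18 in Con went from 56.7 ± 5.26 to 38 ± 1.78 TPM (-0.57 ± 0.10, limma adjusted p = 0.00232). The NCAC call of Rps18 was lost in 7 of 10 fits without 1 library. The Con calls of Rpl27a, Rpl13 and Rpl7 were each lost in 9 of 10. Sums of Rps18 and Rpl10 with their named copies were not tested for these changes. Tested directly, the change from 2 to 8 wk passed for 0 members between CAC and Con, against 0.00641% of all genes, and for 0 between CAC and NCAC, against 0.237%. At an unadjusted p under 0.05 these were 17 and 1 of 77 in limma, against 9.6% and 11.3% of all genes. The count in CAC was 21 without CAC replicate 2 at 2 wk; in NCAC it was 0 without replicate 2 and 41 without replicate 3 at 2 wk, 9 to 15 without replicate 5 at 2 wk or replicate 1, 2 or 5 at 8 wk, and 1 with only the compared groups. In Con it was 15 without replicate 4 at 2 wk, 26 with only the compared groups, and 2 or 3 without any of the other 9 libraries.

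Over the 12 groups together, 64 of 77 members passed limma's F test, against 47.5% of all genes.

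The members of 2 paralog pairs were compared within each library, where the total scaling cancels but trends on gene length and GC content do not. Rpl36al minus Rpl36a, which encode nearly the same 60S protein, was -0.23 ± 0.13 log2 in CAC at 8 wk (SD, n = 7) and -0.41 ± 0.08 in Con (n = 5). The difference was 0.177 (two-sided exact permutation p = 0.0253, adjusted 0.0253 over 2 pairs), and its unadjusted exact p was over 0.05 without Con replicate 2, 3 or 5. Rps27l minus Rps27 was -2.47 ± 0.32 in CAC and -2.94 ± 0.13 in Con, a difference of 0.467 (exact permutation p = 0.00505, adjusted 0.0101). Over the 12 groups the means ran from -0.41 to -0.06 for the first pair and from -2.94 to -2.21 for the second. Con at 8 wk was the lowest for both pairs. Rps27l and Rps27 have lengths of 816 and 1043 bases and GC contents of 43.1% and 55.4%. Rps27rt, outside the rule, was at 52.1 to 325 TPM over the libraries. The part of these trends, or of reads shared with Rps27rt, was not tested.

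Other genes of the translation machinery were counted in the same comparisons of CAC with Con, in which 1.72% of all genes rose and 1.98% fell at 2 wk, and 11.3% rose and 3.2% fell at 8 wk. Of 23 elongation and initiation factors and other TOP genes, 0 fell and 1 rose at 2 wk (Eif2s3x, 0.26 log2), 0 passed at 4 and 6 wk, and 4 rose and 1 fell at 8 wk. The list medians for CAC minus Con were 0.04, 0.06, 0.01 and 0.06 log2 at these times. Examples at 8 wk were Eif4b (0.28), a cofactor of the eIF4A helicase, Eif3e (0.28), a subunit of eIF3, and the TOP gene Tpt1 (-0.19). Of 38 ribosome biogenesis genes, Nop10 (-0.78) and Gar1 (-0.74), both of the H/ACA pseudouridylation complex, fell at 2 wk. At 8 wk 5 rose, among them Polr1a (0.29), the largest RNA polymerase I subunit, and the helicase Ddx21 (0.25).

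Of 27 genes of mTORC1 and its control of TOP mRNAs, 2 rose and 1 fell at 2 wk, against 1.72% and 1.98% of all genes. At 8 wk 6 rose, against 11.3%. At 2 wk Mtor (0.26) and Sesn3 (0.34) rose and Akt1s1 (-0.91), which encodes the inhibitor PRAS40, fell. At 8 wk Mlst8 (0.23), Tsc1 (0.23), Sesn1 (0.39), a GATOR2 inhibitor, and Rps6kb1 (0.27), the S6 kinase, rose. Of the 8 ribosomal genes outside the rule, some of which are also in the first list, Rps27rt fell at 2 wk (-1.07) and 0 passed at 4, 6 and 8 wk. Myelinating oligodendrocyte markers were lower at 8 wk in 3 of 10 (Opalin by 1.3), with means of 5.29 to 6.28 log2 in CAC and 5.72 to 6.57 in Con; their part in the member differences was not tested.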

How the data were processed

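RNA was extracted with Trizol, and stranded TruSeq mRNA libraries were sequenced on a NovaSeq 6000, per the labels' protocols. The authors deposited 1 table of TPM for 47643 symbols and 60 libraries, each summing to 1000000. The genome build was mm10, per the submitters' processing notes; for the aligner, the counter and the annotation the entry is: not given in the sources used here. Uneven recovery of transcripts by length or GC content between libraries stays in TPM. Whole reads were recovered for 24227 genes (100% within 0.02 of a read); 70.4% of the lengths equalled the exon union of GENCODE M21.

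Group means of log2(TPM + 0.5) were fitted over all libraries with limma 3.58.1 in R 4.3.3, with an intensity trend, and p-values were Benjamini-Hochberg adjusted over 15608 genes (threshold 0.05). Fold changes on this scale understate those of low genes. A weighted fit of the recovered reads was tried after the data were seen and is not among the reported fits. It made more lower than higher member calls between CAC and Con at 8 wk, unlike the fit reported. The split of the 8 wk calls thus depends on the fit. The recovered reads serve for depth, the check of near-identical libraries, levels per kilobase of mRNA and sums of a gene and its copies. The script was tested on simulated data.

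Members and lists were chosen with earlier results of these data known. Named members were, per comparison, up to 10 past the threshold in each direction by smallest p, otherwise 3 with the smallest p, and the 5 highest, 5 lowest, 3 steadiest and 3 most variable. Alternatives were pseudocounts of 0.1 and 1, no filter, median-of-ratios scaling, removal of the GC and length trend with splines (5 degrees of freedom each), only the compared groups, no rich libraries, a replicate block and each library left out. Rich libraries had an erythrocyte mean over 2, or a striatum mean over 1, log2 above the median library. No libraries of a group were near-identical: the chi-square per gene between replicates was 9.66 to 73.08, where sampling noise alone gives about 1. Some members that the naming rule picks are not reported here by name; they are counted.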

Additional observations from a re-analysis of the deposited data

Results flagged for a closer look

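The groups of 4 to 7 libraries were checked for a lone library in 76 sets of values, and 6 had one whose gap to the rest was large for the group's range; chance gives about 1 in 20. In Con at 6 wk replicate 5 the median member deviation was 0.338 log2, against -0.114 to 0.011 in the other 4. In CAC at 8 wk replicate 2 it was -0.082, against 0.081 to 0.183 in the other 6. The same library had 12.4 TPM of Rpl29 (others 22.7 to 26.5) and 14 TPM of Rps28 (others 50.7 to 59). Con at 2 wk replicate 4 had 272 TPM of Rpl23 (others 197 to 217), and CAC at 2 wk replicate 2 had 297 TPM of Rps25 (others 399 to 418).

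The difference between CAC and Con rose between 2 and 4 wk in 52 of 77 members by limma's test of that change, against 3.79% of all genes. In 68 members the difference was below 0 at 2 wk and above 0 at 4 wk. The share of all genes with that pair of signs was not computed, so this count is a description only. In Con over the same times 17 members were lower at 4 wk; the same comparison within CAC was not tested.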

How the results depend on the processing

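Each value here counts members past the threshold. At 2 wk CAC against Con gave 26, but 13 with no filter and 13 with the GC and length trend removed, 14 with the replicate block, 0 without the rich libraries and 0 with only the compared groups. At 4 wk 10 became 6 with no filter, 16 with the trend removed, 0 without the rich libraries and 3 with only the compared groups. At 6 wk 0 became 1 with the trend removed. At 8 wk 9 became 4 with median-of-ratios scaling, 17 with the trend removed, 5 with the replicate block and 32 with only the compared groups. CAC against NCAC at 6 wk gave 3, with 7 after the trend was removed and 0 with only the compared groups. NCAC from 2 to 8 wk gave 25, with 16 with no filter, 11 with the trend removed and 1 with only the compared groups; Con gave 6, with 3, 3 and 26. The change of CAC minus Con from 2 to 8 wk gave 0, with 1 after the trend was removed and 1 with only the compared groups, and from 2 to 4 wk 52, with 29 without the rich libraries. The cause of these changes was not tested.

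Leaving out 1 library at a time gave 0 to 43 (CAC against Con at 2 wk), 0 to 21 (4 wk), 0 to 1 (6 wk) and 4 to 10 (8 wk), 0 to 4 (CAC against NCAC at 6 wk), 21 to 55 (CAC from 2 to 8 wk), 0 to 41 (NCAC), 2 to 15 (Con), 0 to 2 (change of CAC minus Con, 2 to 8 wk), 36 to 59 (2 to 4 wk) and 60 to 66 (F test). The paralog differences ranged from 0.136 to 0.201 (Rpl36al minus Rpl36a) and from 0.361 to 0.525 (Rps27l minus Rps27). Summing Rpl27 with its copy gave -0.17 log2 at 8 wk in place of 0.33. Of 59 named differences past the threshold, 14 kept it under every planned fit and 0 changed sign. With the replicate block the Rps28 difference at 8 wk had an adjusted p of 0.0544. Replicate numbers did not pair the libraries: 308 same-numbered pairs had a median correlation of -0.004 and 17 of 60 libraries correlated best with their own number. At these depths spread between libraries, not read number, limits precision.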
